A study of Mus musculus with 16 samples.

Results

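The naive wild-type LSK cells of the series were 2 of its 16 libraries, taken as all samples whose titles give naive LSK cells of BL/6 (WT) mice. LSK cells are bone marrow cells that lack the surface markers of mature lineages and carry Sca-1 and c-Kit, and the cells here were purified by fluorescence-activated sorting. Both libraries came from C57BL/6 mice of genotype WT at postnatal week 8 with disease state naive, and no drug or virus is named for them. The other 14 libraries were 2 of naive CD93-/- (KO) LSK cells, and 12 of leukemia stem cells (LSCs), 3 each of WT, KO, vehicle-treated and metoclopramide-treated mice with chronic myeloid leukemia. Total RNA was extracted with the RNeasy Micro Kit and amplified with the SMART-Seq v4 kit for very small inputs, per the labels. The labels do not say whether the WT LSK replicates came from separate mice, separate sorts or 1 pool, nor how many cells went in. With 2 libraries no test was made, and every pair of values below gives replicate 1 first and replicate 2 second, called library 1 and library 2.

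All blood cells descend from hematopoietic stem cells, which divide rarely and renew themselves. The LSK gate holds these stem cells together with the more numerous multipotent progenitors, which keep several fates but renew little. Single progenitors often transcribe low amounts of genes of more than 1 lineage before they commit, which is called lineage priming, and a bulk library shows only the sum over all cells sorted. A low level may therefore come from few cells with much RNA or from many cells with little, and these libraries cannot tell those apart.

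Levels are in RPKM, reads per kilobase of transcript and 1000000 mapped reads, so that genes can be compared per length. The lowest value, 0.003, stands for no signal. Of 26595 features, 12812 had at least 1 RPKM in library 1 and 12920 in library 2, and 11966, or 45.0%, had it in both. In both libraries 10699 features were at the lowest value. The median of the 13070 features that averaged at least 1 RPKM was 18.9 RPKM, with quartiles of 5.56 and 64.4 and a 95th percentile of 341 RPKM, which serves as the scale for the levels below. Depth, read from the smallest steps between values, was about 5810000 reads in library 1 and 7400000 in library 2, without an error. In this text 2 values are over 2-fold apart when log2((library 2 + 1)/(library 1 + 1)) exceeds 1 in size. By that measure 2160 of the 13070 features (16.5%) were over 2-fold higher in library 2 and 1094 (8.37%) in library 1. The share of higher-in-library-2 features among those apart was 66.4%, against 84.1% (3072 and 580 features) with both libraries scaled to 1 total and 50.6% (1480 and 1448) after quantile normalization. The median log2 difference over all features was 0.15, and moved to 0.39 and -0.01 under these scalings, so list differences below are also given less the median of all features.

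The genes that define the gate were present in both libraries. Ly6a, the gene of Sca-1 (chromosome 15, 74994877 to 74998031 of GRCm38, GENCODE release M21), was at 696.5 and 790.4 RPKM, above the 95th percentile of measured features. Kit (chromosome 5, 75574916 to 75656722), the receptor of stem cell factor, was at 21.4 and 99.3 RPKM, so that the 2 libraries were over 2-fold apart in a gene that every sorted cell should carry on its surface. Procr (chromosome 2, 155751117 to 155755471), which encodes the endothelial protein C receptor and is used to enrich stem cells within LSK cells, was at 85.5 and 101.5 RPKM and differed by less than 2-fold.

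Genes that separate stem cells from multipotent progenitors were unevenly represented. The Flt3 receptor, which marks the lymphoid-primed multipotent progenitors and is absent from the most primitive stem cells, was the highest cytokine receptor of the list at 422.5 and 495 RPKM. Cd34, a sialomucin lost from most adult mouse stem cells and carried by progenitors, was at 259.7 and 696 RPKM and over 2-fold higher in library 2. Cd48, a ligand of Cd244 used to gate stem cells out, was at 97.8 and 178 RPKM. The stem cell marker Slamf1 (CD150) was low, at 2.67 and 0.392 RPKM. With its summed exon length of 6.156 kb, this corresponds to roughly 95 and 18 reads. Per length, Flt3, Cd34 and Cd48 stood far above Slamf1 in both libraries. The contrast depends on the markers chosen, since Slamf1 was among the lowest of the stem cell surface genes. Procr, at 85.5 and 101.5 RPKM, was much nearer to Cd48, and the progenitor gene Il7r was low, at 3.74 and 11.9 RPKM.

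Of 26 surface genes enriched on stem cells, 24 (92.3%) had at least 1 RPKM in both libraries, against 45.0% of all features. Their median level was 47.4 RPKM, and none was at the lowest value in both. The highest were Ly6e, a Sca-1 relative, at 1471 and 2212 RPKM, and Cd47, the signal that protects cells from phagocytosis, at 656 and 793 RPKM. Adgrg1, the adhesion receptor GPR56, followed at 369 and 933 RPKM and was over 2-fold higher in library 2. Of these 3 genes, Ly6e was above Ly6a in both libraries.

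The tetraspanins Cd81, Cd82 and Cd9 were at 444 and 584 (Cd81), 186 and 145.5 (Cd82), and 81.9 and 149.5 (Cd9) RPKM. Cd27, a receptor of the tumor necrosis factor family found on most LSK cells, was at 265 and 295 RPKM, and Gpr171, a G protein-coupled receptor, at 345 and 337 RPKM. The endothelial-type adhesion genes Esam, Eng and Pecam1 were at 66.8 and 54.0 (Esam), 56.2 and 78.6 (Eng), and 26.7 and 42.1 (Pecam1) RPKM. These 8 genes were all within 2-fold between libraries.

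Some other genes used to isolate the most primitive cells were low, whereas Procr, Esam and Eng of the same list were not. Thy1 was at 4.93 and 4.14 RPKM, Vwf, which marks platelet-biased stem cells, at 2.69 and 1.26 RPKM, and Tek, the angiopoietin receptor TIE2, at 1.58 and 10.5 RPKM. Cd93, the C-type lectin-like receptor that the study deleted in other mice, was at 5.34 and 22.9 RPKM, below the median of measured features in library 1 and just above it in library 2, and over 2-fold apart. Of the 25 members that averaged at least 1 RPKM, 5 (20%), Adgrg1, Cd34, Cd93 and Tek among them, were over 2-fold higher in library 2 and 2 (8.00%: Clec1a and Slamf1) in library 1, shares near the 16.5% and 8.37% of all features. The plot of stem cell genes by library shows these pairs.

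**Figure D1:**
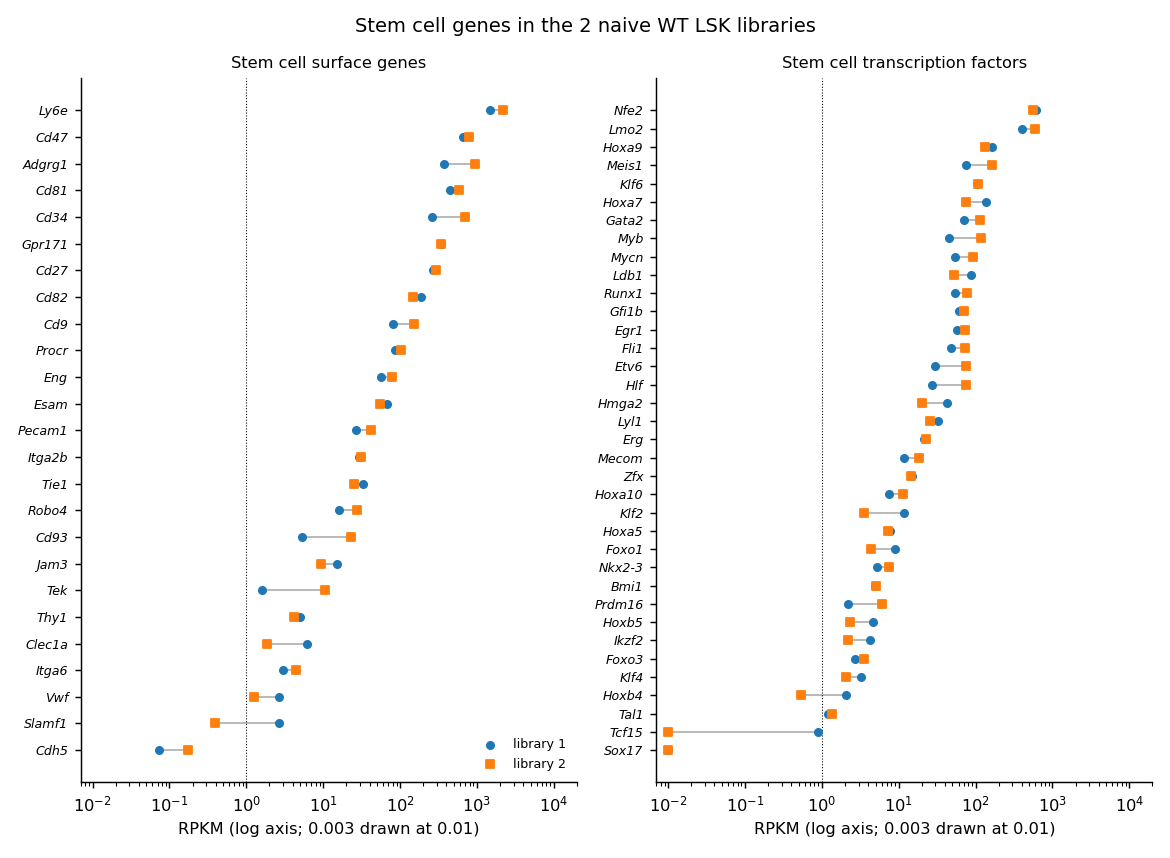
Level of each stem cell surface gene (left) and stem cell transcription factor gene (right) in RPKM on a log axis, ordered by the mean of the 2 naive WT LSK libraries. Members whose values are not reported are not drawn. Circles are library 1, squares library 2, grey lines join them, and the dotted line is 1 RPKM; Ly6e and Nfe2 lead the lists, and Slamf1, Cdh5, Tcf15 and Sox17 lie at the bottom.

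The surface genes of multipotent and committed progenitors were measured as often, with 13 of 14 at 1 RPKM or more in both libraries. Besides Flt3 and Cd48, Ly6c2, a surface protein of monocyte-biased cells, was at 258 and 293 RPKM. Ptprc, the pan-leukocyte phosphatase CD45, was at 62.4 and 86.2 RPKM. Fcgr3, one of the Fc receptor genes used to gate granulocyte-macrophage progenitors, was at 57.6 and 47.0 RPKM, and Fcgr2b was at 26.9 and 27.2 RPKM. Cd38 was at the lowest value in library 1 and at 1.92 RPKM in library 2. Of 13 genes averaging at least 1 RPKM, 2 (15.4%), Ccr9 and Il7r, were over 2-fold higher in library 2 and none in library 1, a share near the 16.5% of all features. With both libraries scaled to 1 total 4 were higher in library 2.

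Transcription factors that build and maintain stem cells were nearly all detected. Of 37, 34 had at least 1 RPKM in both libraries, with a median of 21.9 RPKM, near that of all measured features. Nfe2 was highest, at 608 and 563 RPKM. This erythroid and megakaryocyte regulator was followed by Lmo2, the bridging protein of the stem cell factor complex, at 397 and 599 RPKM.

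The homeobox gene Hoxa9 and its partner Meis1 were at 165 and 132 (Hoxa9), and 75.4 and 163.5 (Meis1) RPKM. Of the other Hox genes listed, Hoxa7 was at 135 and 74.7, Hoxa10 at 7.43 and 11.3, Hoxa5 at 7.62 and 7.31, Hoxb5 at 4.67 and 2.33 and Hoxb4 at 2.06 and 0.538 RPKM. Hoxa9 and Hoxa7 thus stood more than 10-fold above the 2 HoxB genes per length in both libraries. Gata2, Runx1, Gfi1b, Fli1 and Erg, members of the factor set that controls stem cell genes, were at 69.7 and 115 (Gata2), 54.5 and 78.3 (Runx1), 60.8 and 70.1 (Gfi1b), 47.4 and 72.6 (Fli1), and 21.4 and 22.4 (Erg) RPKM. Lyl1 was at 32.5 and 25.6 RPKM, whereas its relative Tal1 was at 1.22 and 1.36 RPKM, so Lyl1 made up nearly all of their summed level.

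The factors most restricted to long-term stem cells were at low to middling levels. Mecom, which encodes EVI1 and stands for the quiescent stem cell, was at 11.6 and 18.4 RPKM. Hlf was at 27.3 and 75.7 RPKM and over 2-fold higher in library 2, as were Myb at 45.7 and 116.5, Meis1, Etv6 at 29.4 and 76.1 and Prdm16 at 2.16 and 6.11 RPKM. Higher in library 1 by over 2-fold were Hmga2, a fetal stem cell regulator, at 42.1 and 20.2 RPKM and Klf2 at 11.6 and 3.55 RPKM. Of the 35 listed factors averaging at least 1 RPKM, 5 (14.3%) were thus higher in library 2 and 2 (5.71%) in library 1. These shares were near the 16.5% and 8.37% of all features.

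Tcf15 and Sox17 were near or at the limit of detection. Tcf15, which marks dormant stem cells, was at 0.878 RPKM in library 1 and at the lowest value in library 2. Sox17, a fetal stem cell factor, was at the lowest value in both. Other factors were low but measured. Foxo1 and Foxo3, which limit oxidative stress and proliferation, were at 8.87 and 4.34 (Foxo1), and 2.73 and 3.54 (Foxo3) RPKM, and the polycomb gene Bmi1 at 4.94 and 5.12 RPKM. The direction of this list as a whole, less that of all features, changed with the scaling, so none is given.

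Lineage genes were led by those of the granulocyte and monocyte branch. All 18 granule and myeloid differentiation genes had at least 1 RPKM in both libraries, with a median of 477 RPKM, at the 96.8th percentile of measured features, and none was over 2-fold apart (3 with both libraries scaled to 1 total). Plac8, a small cysteine-rich protein of early myeloid and lymphoid progenitors, was highest at 3236 and 2468 RPKM. The median depends on the members chosen, and not all of them, Plac8 included, are limited to this branch. The granule proteoglycan Srgn was at 1455 and 1176 and the lysozyme gene Lyz2 at 1466 and 1117.5 RPKM.

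Genes of the primary granules, made at the promyelocyte step, were at similar levels. Mpo, myeloperoxidase, was at 896 and 1609 RPKM, the serine protease genes Elane and Prtn3 at 1043 and 1001 (Elane), and 1085 and 665.5 (Prtn3) RPKM, and Ctsg at 411 and 271 RPKM. Ms4a3, a marker of granulocyte-monocyte progenitors, was at 145 and 117 RPKM, the chemokine Ccl9 at 126 and 104 RPKM and Fcnb at 64.3 and 49.0 RPKM. Hdc, the histamine-forming enzyme, was lowest of the list at 5.80 and 11.3 RPKM.

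The factors of the branch were uneven. Spi1, which encodes PU.1, was at 359 and 393 RPKM and Irf8, needed for monocytes and dendritic cells, at 174.5 and 282 RPKM. The C/EBP family, which drives granulocyte genes together with PU.1, was low by contrast. Cebpa was at 0.319 and 0.5, Cebpb at 0.386 RPKM in library 1 and at the lowest value in library 2, Cebpd at 2.13 and 2.51 and Cebpe at 8.75 and 10.7 RPKM. Per length, Cebpa lay more than 100-fold below Spi1 in both libraries. The transcripts of Cebpa and Cebpb have a G+C content of 62.6% and 67.2%, above 98.6% and 99.8% of coding genes. Among other G+C-rich transcripts, Cebpe has 61.5%, Klf2, at 11.6 and 3.55 RPKM, 61.6%, and Jund, at 32.7 and 20 RPKM, 67.2%. Whether G+C content bears on any of these levels was not tested.

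The sequences before the starts of these genes are shown because the promoters of the myeloid list held some motifs more often than promoters at large, and they were chosen after these shares were seen. For 16 of the 18 genes RefSeq gave a promoter, of which the 250 bases before the start were searched on both strands for GGAAGT, a core of ETS factors such as PU.1, TGTGGT, a core of RUNX factors, AGATAA, a core of GATA factors, and for TATAAA and CCAAT. Of the 16 promoters 62.5% held GGAAGT, against 20.7% of 18263 promoters of measured and unmeasured genes, TGTGGT in 37.5% against 12.3%, and AGATAA in 0.00% against 9.09%. TATAAA was found in 18.8% against 12.02% and CCAAT in 43.8% against 36.3%. The median number of CG pairs was 3 in the 16 promoters and 10 in all. A match is a description of the letters and not a bound site. Below are the sequences of the 4 genes with the highest mean among the 12 with at least 100 bases outside the annotated gene, and that of Flt3, on GRCm38.p6 from RefSeq, 5′ to 3′ on the gene's strand, with every match to the 5 motifs in capitals (a match on the other strand reads as the reverse complement of its motif):
Flt3 (chr5:147400490-147400739, minus strand): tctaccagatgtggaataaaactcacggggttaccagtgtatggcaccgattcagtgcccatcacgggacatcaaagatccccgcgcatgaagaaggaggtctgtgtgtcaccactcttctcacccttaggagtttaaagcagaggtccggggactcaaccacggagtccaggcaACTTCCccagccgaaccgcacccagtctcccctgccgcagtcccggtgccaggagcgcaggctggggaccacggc
Plac8 (chr5:100572246-100572455, minus strand): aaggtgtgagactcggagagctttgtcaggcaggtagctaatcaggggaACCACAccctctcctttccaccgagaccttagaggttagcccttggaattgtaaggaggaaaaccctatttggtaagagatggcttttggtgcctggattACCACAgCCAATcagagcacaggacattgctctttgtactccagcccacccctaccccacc
Srgn (chr10:62527452-62527695, minus strand): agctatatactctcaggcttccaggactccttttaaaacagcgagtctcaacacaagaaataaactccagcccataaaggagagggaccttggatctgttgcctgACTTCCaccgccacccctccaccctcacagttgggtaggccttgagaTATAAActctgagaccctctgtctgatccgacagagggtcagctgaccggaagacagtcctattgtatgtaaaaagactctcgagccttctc
Lyz2 (chr10:117282322-117282522, minus strand): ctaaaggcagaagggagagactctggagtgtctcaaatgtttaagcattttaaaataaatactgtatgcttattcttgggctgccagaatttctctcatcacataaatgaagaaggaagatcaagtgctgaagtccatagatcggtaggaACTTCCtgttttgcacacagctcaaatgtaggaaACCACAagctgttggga
Elane (chr10:79886062-79886246, plus strand): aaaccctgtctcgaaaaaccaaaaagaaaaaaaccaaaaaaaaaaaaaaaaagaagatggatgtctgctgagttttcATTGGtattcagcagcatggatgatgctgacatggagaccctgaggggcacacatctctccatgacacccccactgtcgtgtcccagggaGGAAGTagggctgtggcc
The capitals in Plac8 mark 2 RUNX cores and 1 CCAAT box, and it holds no ETS core. Srgn and Lyz2 each hold an ETS core, Lyz2 with a RUNX core beside it and Srgn with a TATA box, and Elane holds an ETS core and a CCAAT box. Flt3 holds 1 ETS core and 13 CG pairs, against 1 to 5 in the 4 myeloid sequences. Promoters of genes at the lowest value in both libraries held GGAAGT in 15.7%, AGATAA in 13.9% and TATAAA in 20.4% of cases, with a median of 3 CG pairs, and those of genes averaging 100 to 1000 RPKM in 28.0%, 6.17% and 8.16%, with a median of 15. Low CG content was thus shared by the highly expressed myeloid genes and the silent genes.

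Erythroid and megakaryocyte genes were present at lower levels. Their transcription factors were all measured, 8 of 8, with Gata1 at 29.4 and 21.9, Klf1 at 43.4 and 26.4 and Zfpm1, the cofactor FOG1, at 3.63 and 1.58 RPKM. Per length the level of Gata2, which precedes Gata1 in development, was 2.37 and 5.25 times that of Gata1. Of 17 erythroid genes, 13 had at least 1 RPKM in both libraries, with a median of 11.5 RPKM.

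Car2, a carbonic anhydrase, stood apart from the other erythroid genes at 1924 and 1733 RPKM. Car1 was at 225 and 155 and Blvrb at 319 and 147 RPKM. The receptor of erythropoietin, Epor, was at 13.9 and 6.201 RPKM, the transferrin receptor Tfrc at 7.28 and 8.66 RPKM, and the late gene Alas2 at 0.198 and 2.37 RPKM, while Slc4a1 was at the lowest value in both. The globin genes Hba-a1, Hba-a2 and Hbb-bs were at 380.3 and 160.2 (Hba-a1), 110.3 and 43.7 (Hba-a2), and 221 and 136.5 (Hbb-bs) RPKM, and reads of the near-identical alpha-globin copies may have been split between them. Of the 14 erythroid genes averaging at least 1 RPKM, 5 were over 2-fold higher in library 1 and 1 in library 2, against 8.37% and 16.5% of all features. Their median difference was -0.76, or -0.91 less that of all features, and stayed below 0 under both scalings and relative to genes of like length; with both libraries scaled to 1 total, 2 genes were over 2-fold higher in library 1.

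Of 20 megakaryocyte and platelet genes, 14 had at least 1 RPKM in both libraries, with a median of 6.19 RPKM. The platelet chemokine Pf4 was at 193 and 102 RPKM, the integrin Itga2b, or CD41, at 29.5 and 31.2 RPKM and Gp9, part of the von Willebrand factor receptor, at 54.5 and 36.4 RPKM. The other subunits of that receptor were much lower, Gp1ba at 1.25 and 4.35 and Gp5 at 0.505 and 1.58 RPKM and Gp1bb at the lowest value in both, as was the collagen receptor Gp6. Selp and Mmrn1, alpha-granule genes, were at 2.01 and 11.0 (Selp), and 3.74 and 14.3 (Mmrn1) RPKM. The list thus ran from genes above 100 RPKM to genes with no signal.

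Lymphoid genes were also unevenly represented. Dntt, the terminal transferase that marks lymphoid-primed progenitors, was at 271.5 and 550.0 RPKM and over 2-fold higher in library 2. Mpo exceeded it 3.30 and 2.93 times per length. The recombinase genes were low, Rag1 at 0.165 and 0.865 and Rag2 at 4.46 and 9.97 RPKM, and the interleukin-7 receptor Il7r was at 3.74 and 11.9 RPKM. Of 24 early lymphoid genes, 22 (91.7%, against 45.0% of all features) had at least 1 RPKM in both libraries. Among these 6 (27.3%) were over 2-fold higher in library 2 and none in library 1, against 16.5% and 8.37% of all features.

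Others of the list were abundant. Ighm, the mu heavy chain gene whose unrearranged locus is transcribed early, was at 1923 and 1193 RPKM, Cd52 at 1041 and 522, Lsp1 at 538 and 569.8 and Jchain at 356 and 289 RPKM. Antibody-making cells also use Ighm and Jchain, and their part in these levels was not tested. The surrogate light chain genes Vpreb1 and Igll1, which pre-B cells use, were at 9.63 and 6.61 (Vpreb1), and 3.55 and 4.07 (Igll1) RPKM, and the kinase Lck of T cells at 53.8 and 77.7 RPKM. Among 18 lymphoid transcription factors 12 had at least 1 RPKM in both libraries. Those used across early lymphoid cells were measured, with the E proteins Tcf3 and Tcf4 at 85.5 and 119.7 (Tcf3), and 76.5 and 91.2 (Tcf4) RPKM, Ikzf1 at 25.9 and 31.2, Bcl11a at 43.1 and 46.2 and Notch1 at 15.0 and 15.4 RPKM. Those of committed cells were uneven. Pax5, the factor of B cell commitment, was at the lowest value in both libraries, and Bcl11b, of T cell commitment, was at it in library 1 and at 0.797 RPKM in library 2. Ebf1 was at 0.097 and 1.75 RPKM and Tcf7 at 0.189 and 6.07 RPKM, both low in library 1 and measured in library 2. The T cell factors Gata3 and Runx3 were measured in both, at 13.4 and 13.2 RPKM (Gata3), and 5.14 and 10.8 RPKM (Runx3). The plot of lineage lists sets these groups side by side.

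**Figure D2:**
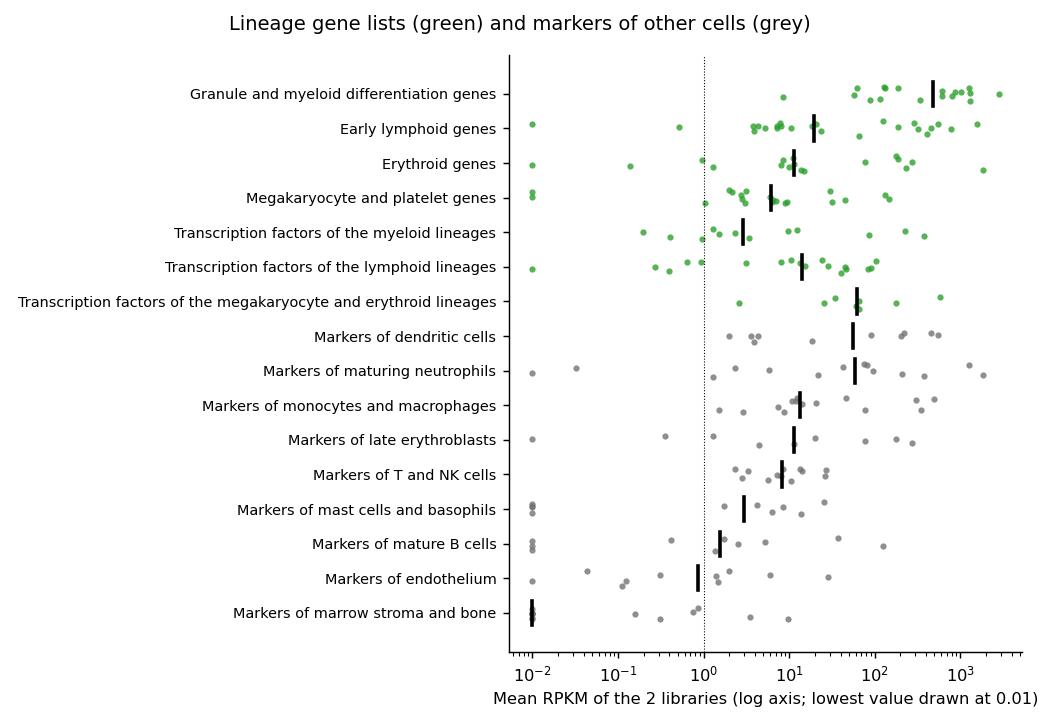
Mean RPKM over the 2 libraries of each member of the lineage lists (green) and of the marker lists of other cell types (grey), on a log axis. Each point is a gene, thick bars are list medians and the dotted line is 1 RPKM; granule and myeloid genes have the highest median, 477 RPKM, and markers of marrow stroma and bone the lowest, at the lowest value.

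Markers of cells that the gate should leave out were checked by the same lists. Marrow stroma was at the bottom, with 7 of 13 markers, Cxcl12, Lepr and Col3a1 among them, at the lowest value in both libraries, and summed levels of 12.1 and 18.3 RPKM. Endothelial markers summed to 33.95 and 46.3 RPKM, most of it from Emcn at 26.1 and 31.3 RPKM, while Cdh5 was at 0.073 and 0.172 RPKM. Mature B cell markers summed to 213 and 134 RPKM, most of it from Cd79b at 147 and 102 and Iglc2 at 53.8 and 20.9 RPKM. Ms4a1 was at 1.97 and 1.54 RPKM, and Pax5, Cr2 and Fcer2a were at the lowest value in both.

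Of 12 T and NK cell markers, 10 had at least 1 RPKM in both libraries, and the list summed to 101 and 158 RPKM. The CD3 chains Cd3d and Cd3g were at 30 and 24.3 (Cd3d), and 27.9 and 25.3 (Cd3g) RPKM, whereas Cd8a and Klrb1c were at the lowest value in library 1 and at 5.62 and 11.2 RPKM in library 2. Of these 12 genes 7 (58.3%) were over 2-fold higher in library 2 and none in library 1, against 16.5% and 8.37% of all features. Mast cell and basophil markers summed to 43.1 and 77.2 RPKM, with Cpa3 at 29.9 and 21.0 RPKM, Prss34 only in library 2, at 12.6 RPKM, and Fcer1a at the lowest value in both.

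Markers of maturing neutrophils were higher and differed between the libraries. They summed to 5907.5 and 2195 RPKM, led by the alarmin genes S100a8 at 2787 and 946 and S100a9 at 1919 and 634 RPKM. Secondary granule genes were lower, Camp at 531 and 216, Ngp at 288.5 and 128, Lcn2 at 58.5 and 26.2 and Ltf at 28.1 and 15.8 RPKM. Genes of late neutrophils were uneven. Ly6g and Retnlg were at 2.55 and 11.7 RPKM in library 1 and at the lowest value in library 2, Mmp8 was at it in both, and Mmp9 was at 0.062 RPKM in library 2 alone. Cxcr2 was at 0.478 and 4.25 RPKM, whereas Padi4, an enzyme that citrullinates histones, was well measured at 48.5 and 116.5 RPKM. Of 12 markers averaging at least 1 RPKM, 8 (66.7%) were over 2-fold higher in library 1 and 2 (16.7%) in library 2, against 8.37% and 16.5% of all features. Their part in the myeloid levels above was not tested.

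Macrophage markers had 12 of 14 genes at 1 RPKM or more in both libraries and summed to 1703 and 1011 RPKM. The complement genes C1qb, C1qc and C1qa made up most of it, at 697 and 294 (C1qb), 436 and 253 (C1qc), and 402.5 and 203 (C1qa) RPKM. Vcam1 and Spic, which mark the macrophages of erythroid islands and iron recycling, were at 64.4 and 90.1 (Vcam1), and 38.0 and 54.5 (Spic) RPKM, Adgre1, the F4/80 antigen, at 13.1 and 15.0 RPKM and Csf1r at 10.6 and 30.7 RPKM. Late erythroblast markers, which share the globin genes with the erythroid list, summed to 749.5 and 377 RPKM. Dendritic cell markers had 9 of 10 genes in both libraries, among them Siglech at 87.5 and 95.7, Bst2 at 642 and 450.3, Irf7 at 188.5 and 217 and Ly6d at 214 and 224 RPKM, genes of plasmacytoid dendritic cells that lymphoid progenitors partly share. The part of these other cells in the libraries was not tested.

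Cytokine receptors decide which outside signals a progenitor can read. Of 44 genes, 37 (84.1%) had at least 1 RPKM in both libraries, with a median of 21.3 RPKM, and Il5ra, Osmr and Il2ra were at the lowest value in both. After Flt3, the common gamma chain Il2rg, shared by receptors of interleukin-2, interleukin-7 and others, was highest at 232 and 311 RPKM. The interferon receptor chains Ifnar2 and Ifngr1 were at 217.5 and 199 (Ifnar2), and 75.01 and 146 (Ifngr1) RPKM, and their partners Ifnar1 and Ifngr2 at 10.00 and 33.7 (Ifnar1), and 26.4 and 43.5 (Ifngr2) RPKM. Both interferon types thus had both chains measured in both libraries.

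Receptors of the myeloid growth factors stood in the middle of the list. Csf3r, for G-CSF, was at 53.0 and 74.6 RPKM, Csf2ra, for GM-CSF, at 48.7 and 68.8 RPKM, and Csf1r, for M-CSF, as above. The interleukin-3 chain Il3ra was at 40.6 and 27.9 RPKM, and the common beta chain genes Csf2rb and Csf2rb2 at 14.4 and 36.4 (Csf2rb), and 5.16 and 9.42 (Csf2rb2) RPKM. These last 2 are near-identical copies whose reads may have been split, so their separate levels are uncertain. Per length Flt3 exceeded Kit in both libraries, with Kit at 0.0506 and 0.2004 of it.

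Receptors of inflammatory cytokines were measured as well. The tumor necrosis factor receptors Tnfrsf1a and Tnfrsf1b were at 41.9 and 119 (Tnfrsf1a), and 13.3 and 53.7 (Tnfrsf1b) RPKM, and the interleukin-1 receptor Il1r1, which drives myeloid output under stress, at 4.08 and 17.2 RPKM. Il17ra, Il21r and Il27ra were at 30.4 and 94.8 (Il17ra), 77.9 and 91.5 (Il21r), and 32.7 and 54.3 (Il27ra) RPKM. The gp130 family was low, with Il6st at 0.75 and 6.28, Il6ra at 5.6 and 8.39 and Lifr at 0.21 and 3.17 RPKM. The receptors of transforming growth factor beta, a signal of stem cell quiescence, were at 10.1 and 4.197 RPKM for Tgfbr1 and 6.48 and 14.7 RPKM for Tgfbr2.

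This list differed between the libraries more than most. Of 40 receptors averaging at least 1 RPKM, 21 (52.5%) were over 2-fold higher in library 2 and 3 in library 1, against 16.5% and 8.37% of all features. The median difference was 1.02, or 0.87 less that of all features, and 0.68 relative to coding genes of like length. The difference kept its sign under both scalings, and with both libraries scaled to 1 total 22 were over 2-fold higher in library 2 and 0 in library 1. Kit was over 2-fold higher in library 2 like most of the list, and Flt3 was not.

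**Figure D3:**
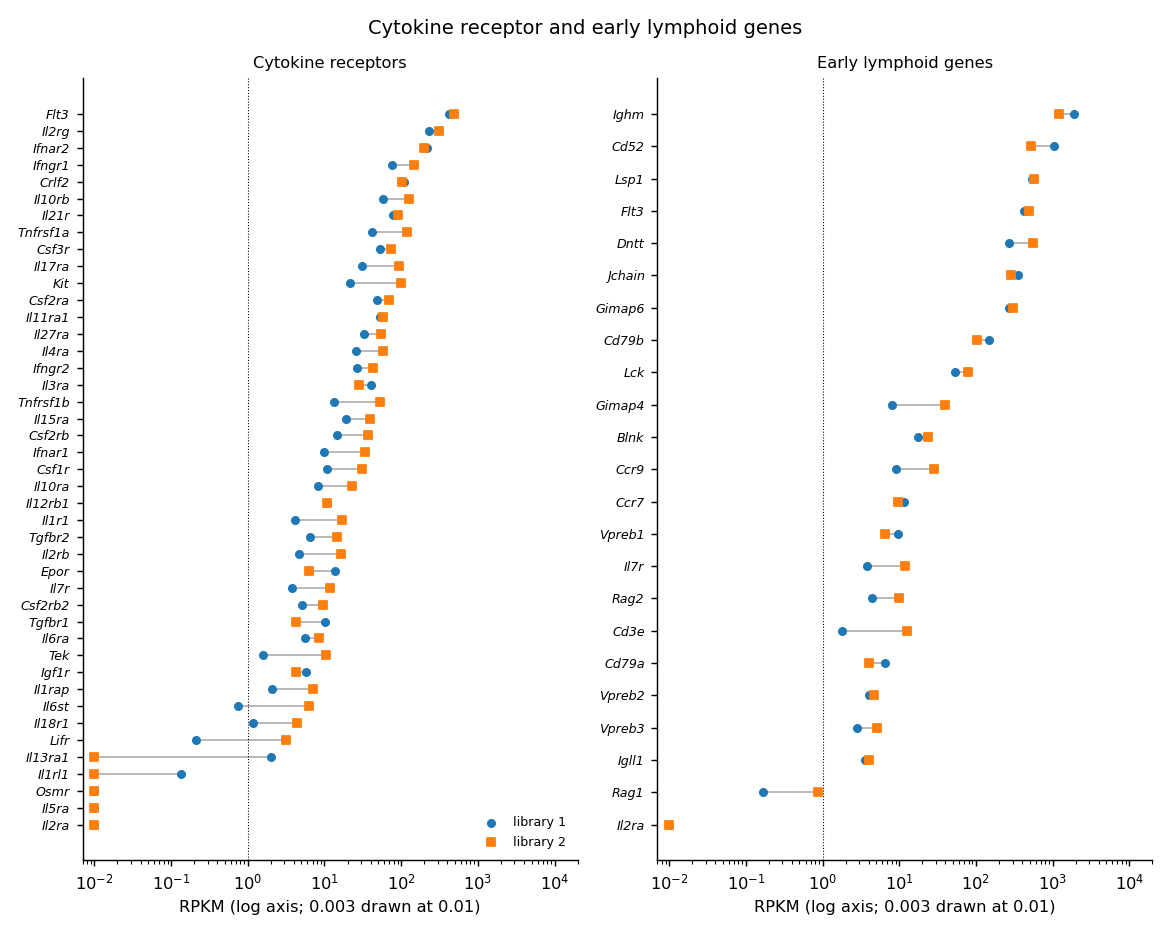
Level of each cytokine receptor gene (left) and each early lymphoid gene (right) in RPKM on a log axis in the 2 naive WT LSK libraries, ordered by mean. Members whose values are not reported are not drawn. Circles are library 1, squares library 2 and the dotted line is 1 RPKM; 33 of the 40 receptors that averaged at least 1 RPKM, including 1 that is not drawn, were higher in library 2.

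Downstream of the receptors, 18 of 20 genes of the JAK-STAT pathway had at least 1 RPKM in both libraries. Jak3, the kinase bound to the common gamma chain, was highest at 117 and 158 RPKM, and Jak1 was at 49.6 and 105 RPKM. Jak2, which serves the receptors of erythropoietin and interleukin-3, was at 6.18 and 6.71 RPKM. Jak1 exceeded it 8.03 and 15.6 times per length.

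Of the STAT factors, Stat3 was at 75.5 and 139.6 RPKM, and the pair Stat5a and Stat5b were at 25.6 and 69.2 (Stat5a), and 29.5 and 67.4 (Stat5b) RPKM. Stat5b was 1.16 and 0.974 times Stat5a per length, so the pair was nearly even. The feedback inhibitors Socs2 and Cish, both STAT5 targets, were at 34.6 and 36.2 (Socs2), and 28.2 and 38.7 (Cish) RPKM, against 2.96 and 1.27 (Socs1), and 5.58 and 4.78 (Socs3). In this pathway 9 of 19 genes were over 2-fold higher in library 2 and none in library 1, against 16.5% and 8.37% of all features, and the median difference was 0.88, or 0.73 less that of all features.

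Adhesion and homing genes tie the cells to their niche. Of 20 genes, 18 had at least 1 RPKM in both libraries and Cdh2 and Ackr3 were at the lowest value in both. Selplg, the selectin ligand PSGL-1, was at 402 and 501 RPKM, and the integrin chains Itgb1, Itga4 and Itga5 at 42.1 and 87.2 (Itgb1), 12.3 and 13.8 (Itga4), and 15.3 and 17.1 (Itga5) RPKM. Cxcr4, the receptor of the niche chemokine CXCL12, was at 9.56 and 14.5 RPKM and Cd44 at 12.5 and 24.4 RPKM. The roundabout receptor Robo4 was at 15.98 and 27.5 RPKM.

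Of the 20 most abundant named genes, 1, Plac8, belonged to a lineage list. Tmsb4x, the actin-binding thymosin beta-4, was highest of all named genes at 14041 and 8304.5 RPKM, then B2m, the light chain of MHC class I, at 6382 and 8919.5 RPKM. The polyubiquitin gene Ubb was at 7232.5 and 5429.6 RPKM and Gpx1, which removes hydrogen peroxide, at 7674 and 4754.5 RPKM. Fth1, the ferritin heavy chain, was at 4889.8 and 3826 RPKM, and the actin regulators Pfn1 and Arhgdib at 3488 and 2576 (Pfn1), and 2655 and 2346 (Arhgdib) RPKM.

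The rest of the 20 highest were 4 ribosomal protein genes (Rpl32, Rps3, Rps9, Rps14), 4 mitochondrially encoded genes (listed as ATP6, COX1, COX3 and CYTB), the class I genes H2-K1 and H2-D1, Plac8, Crip1 and Ndufa4, all between 2499 and 4558 RPKM on average. Unnamed gene models, pseudogenes, antibody segments and small RNA entries were left out of this ranking. The 10 highest features took 6.45% of all RPKM in library 1 and 5.04% in library 2, and the 100 highest 24.4% and 19.5%.

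Genes of class I antigen presentation were high. H2-K1 and H2-D1 were at 3447 and 3276 (H2-K1), and 2479 and 2929 (H2-D1) RPKM, and the immunoproteasome subunit genes Psmb8 and Psmb9 at 1416 and 1376 (Psmb8), and 810.2 and 677 (Psmb9) RPKM. The class II genes H2-Ab1, H2-Aa and Cd74, the invariant chain, were also measured, at 318 and 623 (H2-Ab1), 178 and 368 (H2-Aa), and 515 and 1297 (Cd74) RPKM, while their activator Ciita was at 0.989 and 5.13 RPKM. All 16 genes averaged at least 1 RPKM. Of these, 5 (31.25%) were over 2-fold higher in library 2 and none in library 1, against 16.5% and 8.37% of all features.

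Metabolism was read from 8 lists. Glycolysis had 25 of 27 genes in both libraries and a median of 41.9 RPKM. Aldoa and Ldha, the lactate dehydrogenase subunit of anaerobic use, led at 793 and 613 (Aldoa), and 626 and 592 (Ldha) RPKM, and Pkm was at 281 and 408 RPKM. Ldha exceeded Ldhb by 6.77 and 5.11 times per length. Gapdh, usually among the highest genes of a cell, was listed at 87.1 and 76.0 RPKM, and its many processed pseudogenes make that level uncertain.

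Of the entry steps of glycolysis, the hexokinase genes Hk1, Hk3 and Hk2 were at 32.5 and 112 (Hk1), 46.9 and 71.7 (Hk3), and 0.25 and 3.23 (Hk2) RPKM. The glucose transporter Slc2a1 was at 25.1 and 28.2 RPKM and Slc2a3 at 4.88 and 25.7 RPKM. The pyruvate dehydrogenase kinases Pdk1, Pdk2 and Pdk3, which keep pyruvate out of mitochondria, were at 16.1 and 42.4 (Pdk1), 19.3 and 38.9 (Pdk2), and 78.2 and 110.2 (Pdk3) RPKM, and Pdk4 was at the lowest value in both. Meis1 aside, the hypoxia list was modest, with Hif1a at 8.71 and 16.9, Vegfa at 9.06 and 14.3 and Epas1 at 0.262 RPKM in library 1 and the lowest value in library 2.

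Mitochondrial genes were higher. Citric acid cycle enzymes had 24 of 25 genes in both libraries and a median of 115 RPKM, led by Mdh1 at 760.2 and 824 and Sdhb at 880.0 and 567 RPKM. All 39 nuclear respiratory chain subunits were measured, with a median of 616 RPKM, at the 97.8th percentile, and all 13 mitochondrially encoded genes, with a median of 1473 RPKM, at the 99.4th. Ndufa4, Atp5e and Cox4i1 were the highest nuclear subunits, at 3129.7 and 1869 (Ndufa4), 2892 and 1323 (Atp5e), and 2527 and 1528 (Cox4i1) RPKM. The median of the nuclear respiratory genes, a list of mostly short transcripts, was 17.7 times that of glycolysis in library 1 and 9.77 times in library 2. That ratio depends on the members chosen, since the glycolysis list includes isoforms and regulators with little or no signal, such as Hk2 and Pdk4. Its leading genes Aldoa and Ldha averaged 703 and 609 RPKM, near the respiratory median.

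Fatty acid oxidation, which stem cells are known to need for renewal, had 17 of 20 genes in both libraries and a median of 69.7 RPKM. Etfb was highest at 1139.8 and 741 RPKM, the dehydrogenases Acadl and Acadm were at 189 and 191 (Acadl), and 66.8 and 94.5 (Acadm) RPKM, and the entry enzyme Cpt1a at 7.56 and 29.1 RPKM. Cpt1b and the lipid sensor Ppara were at the lowest value in both, and its relatives Ppard and Pparg were at 0.52 and 0.612 (Ppard), and 8.73 and 3.65 (Pparg) RPKM. Cholesterol synthesis had all 24 genes in both libraries, with the regulator Srebf2 at 109 and 124 RPKM. In it 11 genes (45.8%) were over 2-fold higher in library 2 and none in library 1, against 16.5% and 8.37% of all features. Its median difference was 0.73 on the log2 scale, and 0.35 relative to genes of like length.

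Among antioxidant and pentose phosphate genes, all 24 were measured, and after Gpx1 came Txn1 at 921 and 674, Prdx1 at 769 and 686 and Tkt at 782 and 619 RPKM. Cat was at 44.5 and 124 RPKM, and the superoxide dismutases Sod1 and Sod2 at 231 and 97.5 (Sod1), and 294 and 258 (Sod2) RPKM. No direction is given for this list, since it changed with the scaling.

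Proliferation genes were measured throughout. All 25 DNA replication genes and all 24 mitosis genes had at least 1 RPKM in both libraries, with medians of 64.6 and 39.5 RPKM. Mcm6, Mcm5 and Pcna of the replication machinery were at 185 and 432 (Mcm6), 155 and 270.0 (Mcm5), and 284 and 216 (Pcna) RPKM, and Birc5, Cdk1 and Ube2c of mitosis at 249.2 and 248 (Birc5), 166 and 206 (Cdk1), and 174 and 179.5 (Ube2c) RPKM. Mki67 was at 36.3 and 31.1 RPKM and Top2a at 80.5 and 87.8 RPKM.

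Of the G1 regulators, Cdk4 was at 1043 and 1056 and Cdk6, the kinase whose absence marks dormant stem cells, at 72.8 and 102 RPKM. Ccnd2 was the main D cyclin, at 717 and 592 RPKM, 32.7 and 32.4 times Ccnd1 per length, and Ccnd3 was at 139.8 and 185 RPKM. The quiescence inhibitor Cdkn1c, or p57, was low at 2.63 and 2.84 RPKM, while Cdkn1a, Cdkn1b and Cdkn2d were at 37.3 and 38.5 (Cdkn1a), 23.8 and 14.8 (Cdkn1b), and 92.8 and 107.5 (Cdkn2d) RPKM. Cdkn2a and Cdkn2b, which rise with age, were at the lowest value in both libraries. Myc was at 434 and 598 RPKM and Mycn, which stem cells also use, at 53.6 and 91.3 RPKM.

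Immediate-early genes, which cells switch on during tissue handling as well as in life, were measured too. Fos, Jun and Junb were at 1190.4 and 601 (Fos), 577 and 597 (Jun), and 719 and 444 (Junb) RPKM, and Dusp1 and Egr1 at 95.4 and 162 (Dusp1), and 57.3 and 72.5 (Egr1) RPKM. Atf3 was at the lowest value in library 1 and Egr2 and Egr3 in both. All 20 DNA and histone methylation enzymes were measured in both libraries. Eed and Ezh2 of polycomb were at 106 and 86.0 (Eed), and 87.8 and 100 (Ezh2) RPKM, Dnmt1 and Dnmt3a at 70.1 and 115 (Dnmt1), and 39.1 and 41.7 (Dnmt3a) RPKM, and Tet2 at 2.88 and 3.08 RPKM.

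The 2 libraries agreed closely in the order of genes. Over the 13766 features at 1 RPKM or more in either library, log2(RPKM + 1) gave a Pearson correlation across genes of 0.917 and a Spearman correlation of 0.920, and 26.8% of features were over 2-fold apart. Genes within a library are not independent replicates, so no p-value is given. The KO LSK pair gave 0.928, 0.921 and 24.9%, and the WT LSC pairs Pearson correlations of 0.402 to 0.536. The share over 2-fold apart was 36.5% at a mean of 1 to 3 RPKM, fell to 10.1% at 100 to 300 RPKM, and was 20.7% at 1000 RPKM and above.

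**Figure D4:**
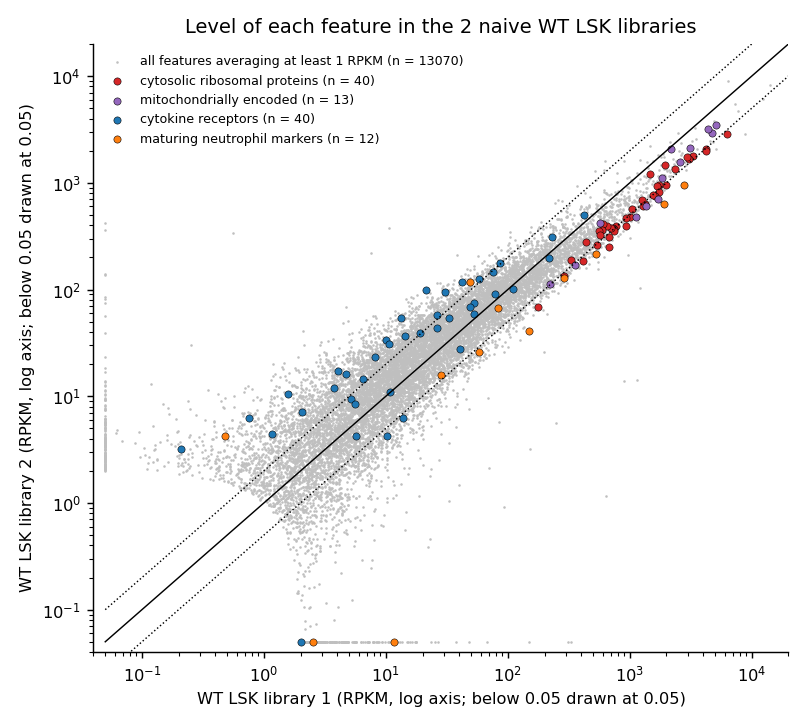
Each feature averaging at least 1 RPKM (grey) in library 1 and library 2 of naive WT LSK cells, both in RPKM on log axes, with 4 gene lists in colour. The solid line is equality and the dotted lines a 2-fold ratio; as deposited, 40 of 40 ribosomal protein genes (38 after quantile normalization) and 13 of 13 mitochondrially encoded genes (7 after it) lie below the solid line, and 33 of 40 cytokine receptors (32) above it.

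The differences between the libraries ran along the level and length of genes. The median log2 difference was 0.35 at a mean of 10 to 30 RPKM and -0.68 at 1000 RPKM and above. Among 7647 coding genes averaging at least 10 RPKM it went from -0.38 in the 1530 genes with the shortest summed exons to 0.40 in the 1529 with the longest, with a Spearman correlation across genes of 0.360. In the KO LSK pair the same genes gave -0.155, a correlation smaller in size. Its sign depends on which replicate is numbered first, so signs cannot be compared between the pairs. Lists differ in the length of their genes, with medians of 1.99 kb for ribosomal protein genes and 4.46 kb for cytokine receptors, and the part of length was not tested beyond the comparison with genes of like length. That comparison used length classes of coding genes averaging at least 10 RPKM, also for list members below that level. Shorter genes were also higher, with library 1 medians of 111 RPKM in the shortest class and 23.9 in the longest, so length and level were not separated.

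Of the lists higher in library 1, maturing neutrophil markers had the largest median difference, -1.23. Cytosolic ribosomal protein genes are mostly short and also had higher values in library 1. All 40 were lower in library 2 as deposited and with both libraries scaled to 1 total, and 38 after quantile normalization, with Rpl32 at 6264.5 and 2852, Rps3 at 4228 and 2067 and Rplp0 at 1465 and 1206 RPKM. The median difference was -0.98, or -1.13 less that of all features and -0.71 relative to genes of like length. All features averaging 300 to 1000 RPKM had a median difference of -0.56, and those at 1000 RPKM and above -0.68. The part of level was not tested. Of the 40 ribosomal protein genes, 19 were over 2-fold higher in library 1 and 0 in library 2. With both libraries scaled to 1 total, 2 were over 2-fold higher in library 1. The 13 mitochondrially encoded genes were lower in library 2 in 13 cases as deposited, 12 after scaling and 7 after quantile normalization. Ribosomal protein genes have many processed pseudogenes, which may share their reads. Relative to all features, 30 of the 39 lists kept the sign of their difference as deposited, under both scalings and relative to genes of like length, 21 of them higher in library 2 and 9 higher in library 1.

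**Figure D5:**
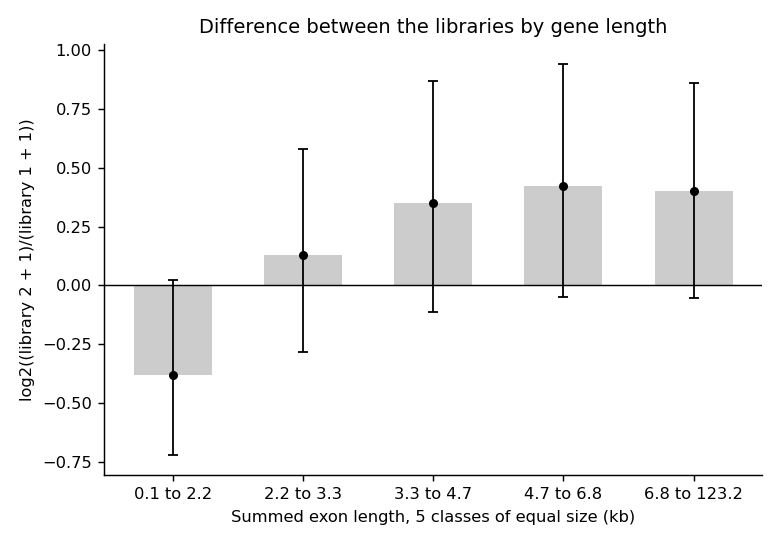
Median log2((library 2 + 1)/(library 1 + 1)) of coding genes averaging at least 10 RPKM in the 2 naive WT LSK libraries, in 5 classes of summed exon length in kb (bars and points), with whiskers from the first to the third quartile over genes. The median is -0.38 in the shortest class and 0.40 in the longest.

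Some single genes were far apart. Of 8374 features averaging at least 10 RPKM, 989 were left out of this ranking (unnamed gene models, pseudogenes, small RNA families, antibody and T cell receptor segments, and features with shared or date-like names), and 12 and 18 of those lay further apart than the first gene given in each direction. Among the other 7385, Xlr3b (0.253 and 30.3 RPKM), Ppp2r1b (2.09 and 40.5), Calu (4.72 and 68.5), Mob1a (2.12 and 30.3) and Sec23a (1.20 and 19.98) were furthest apart with the higher value in library 2, followed by Myadm, Zfp740, F2r, the thrombin receptor, Gpd1l and Cstf2t. The stress gene Hspa1b, a heat shock protein 70 with a near-identical copy that makes its level uncertain, was furthest in the other direction at 33.2 and 1.05 RPKM, followed by Phxr4, Khdrbs3 (23.5 and 2.08), Bc1, Scarna2, Zfp91, Rn5s29, Scarna17, Cd209g and Bex4. The 10 genes higher in library 2 had summed exons of 3336 to 6449 bases, while those of the 10 higher in library 1 ran from 79 to 10046 bases. Of these, Bc1, Scarna2, Rn5s29 and Scarna17 had 79 to 414 bases, Bex4 and Phxr4 837 and 1391, and Hspa1b, Cd209g, Khdrbs3 and Zfp91 from 2803 to 10046.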

How the data were processed

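RNA from 2 naive WT LSK libraries was analysed; the labels give no separate animals. The authors deposited RPKM values, mapped to GRCm38 (mm10) per the submitters' processing notes; the aligner, the counter and its annotation were not given in the sources at hand. The labels do not name the unit. It was read from the values, since in single-exon transcripts of at least 300 bases values times length clustered at 1 step (14 of 47 and 12 of 62 low values within 2% of it), which also gave the depths. Lengths, summed over all annotated exons of a gene, came from GENCODE release M21. They may differ from those behind the deposited values, so the depths and the implied reads are approximate, and no counting interval was computed.

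Values were used as deposited, on the log2(RPKM + 1) scale, with Python 3.11.15, pandas 2.3.3, numpy 2.4.6 and scipy 1.17.1; the measures were checked on simulated data. The 39 gene lists and the members were chosen with earlier results of these data known, and lists overlap. Of the listed genes 670 matched by symbol, 13 by synonym, 13 by mitochondrial name and 1 was not listed. Jchain, Spi1 and Adgrg1 appear in the data as Igj, Sfpi1 and Gpr56. Features under names turned into dates (25) matched no list, and 454 features shared a name. Named were the 20 highest features, up to 8 of each list, members with no signal or over 2-fold apart, 9 stem cell markers, and the 10 furthest apart each way; other list members were chosen after their values were seen. So were the comparisons by length, G+C content and antibody segments, and the promoter search of 5 motifs in 11 gene sets, which replaced a search for pyrimidine runs at start sites that was dropped after its result was seen. Some listed genes were counted in the lists but are not reported here. Alternatives were other scalings, thresholds and pseudocounts, and leaving out each library.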

Additional observations from a re-analysis of the deposited data

How the results depend on the processing

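The correlation of the 2 libraries depended on which low values entered. The Pearson correlation was 0.850 with a pseudocount of 0.1, 0.965 with no filter on low values and 0.883 over features averaging 10 RPKM or more. The Spearman correlation was 0.944 with no filter and 0.877 over features averaging 10 RPKM or more. With no filter 13.9% of features were over 2-fold apart. Scaling to 1 total and quantile normalization left the Pearson correlation at 0.917 and 0.920. A feature was measured in both libraries in 11838 cases after scaling and 9115 at a threshold of 5 RPKM, and library 2 alone had 12920 and library 1 alone 12812.

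The level of a gene list moved by less than 1 SD of its 2 library medians in 32 of 39 lists under scaling, 39 under quantile normalization, 31 with library 2 alone and 32 with library 1 alone. That SD comes from the same 2 libraries, so a level midway between their medians stays within it when either is left out. Early lymphoid genes, at 10.6 RPKM in library 1 and 26.1 in library 2, did not count as moved. Where the 2 medians lie close, a small shift does count, so these counts do not measure robustness. Scaling moved the counts of members over 2-fold apart by more than 1.5 times in 23 of 78 cases, and a pseudocount of 0.1 in 9. Values with no replicate spread, such as a correlation, were called moved past 0.02, a tolerance chosen for this purpose. The 9 lists whose difference less that of all features changed sign under a scaling or the comparison with genes of like length, all 3 chosen after the data were seen, are given no direction. Genes at 1 RPKM or less rest on few reads, and with 2 libraries no difference was tested. No paired analysis was possible because only 1 group was described.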

Other observations

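Antibody genes were among the most abundant features of the naive WT LSK libraries, beyond the heavy chain gene Ighm. In all, 89 immunoglobulin features averaged at least 1 RPKM, and their values summed to 19575 RPKM in library 1 and 11533 in library 2. These sums include very short joining segments, such as Igkj4 at 2142 and 1990 RPKM, for which few reads give a high RPKM. The kappa constant gene Igkc was at 4571 and 2487.5 RPKM, ranking 15 of all features by mean. The lambda constant gene Iglc1 was at 891 and 13.9 RPKM. Variable segments, which a B lineage cell uses 1 at a time per chain after rearrangement, were uneven between the libraries. Of 69 averaging at least 1 RPKM, 30 (43.5%) were over 2-fold higher in library 1 and 15 (21.7%) in library 2, against 8.37% and 16.5% of all features, and 24 were within 2-fold. Iglv1 was at 821 and 42.7 RPKM and Igkv9-120 at 636 and 1.16 RPKM, while Igkv4-57-1 and Igkv6-32 were at the lowest value in library 1 and at 424 and 363 RPKM in library 2. Others were close, such as Ighv11-2 at 208 and 153 RPKM and Ighv1-82 at 25.8 and 26.6 RPKM. T cell receptor segments were lower, 48 features with sums of 409 and 345 RPKM. Beside these stand the mature B cell markers Ms4a1 at 1.97 and 1.54 RPKM and Cd79b at 147 and 102 RPKM. Jchain, which antibody-secreting cells use, was at 356 and 289 RPKM. The part of such cells in the antibody levels was not tested, and these features were chosen after their values were seen.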
